A study of Homo sapiens with 12 samples.

Results

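The mitosis and spindle genes examined here are 54 genes whose products drive cells into mitosis, build the spindle, hold and separate the chromosomes and divide the cell. They were chosen by symbol, and all 54 were present among the 57500 genes of the count table, each on a single Ensembl ID. All 54 also passed the filter on low counts that left 27029 genes for testing, and the lowest count of a member in any library was 128. The expression of these genes was measured by RNA sequencing in 12 libraries of total RNA depleted of ribosomal RNA. HCC1806 and MDA-MB-468 are established breast cancer cell lines, labelled triple-negative, a class with little estrogen receptor, progesterone receptor or HER2. CRISPR-Cas9 with the guide sgPACT-2 was used to deplete PACT, the double-stranded RNA binding protein encoded by PRKRA, in both lines. The control guide was sgC1 in HCC1806 and sgNTA in MDA-MB-468, so that a difference between the lines cannot be told apart from a difference between the control guides. Each of the 4 groups had 3 libraries. Whether these came from separate cultures, and whether cells were pooled or cloned after editing, is not given in the sources used here, and p-values therefore measure only the spread between these samples.

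Mitotic genes are transcribed in a wave that peaks in the G2 phase and mitosis. Their promoters are held silent early in the cycle by the DREAM complex and are switched on later by B-MYB and FOXM1 through the shared MuvB core, which contacts a short element called the CHR, while NF-Y binds CCAAT boxes nearby. Cyclin B with CDK1 starts mitosis, the spindle checkpoint delays anaphase until kinetochores are attached, and the anaphase-promoting complex then marks cyclin B and securin for destruction. Because of this shared timing, the summed RNA of these genes in a bulk sample follows both the share of cells in G2 and mitosis and the amount per cell, which cannot be told apart here.

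The shared promoter letters are shown first, because they are a feature of the members that their choice did not use. RefSeq promoter windows on GRCh38.p14, from 250 bases before to 50 bases after a gene's start, were matched for 46 of the 54 members, with 58 windows in all. AURKA, BIRC5, BUB3, FOXM1, RACGAP1, TPX2, TTK and UBE2C had no window in the table. The CHR was searched as TTTGAA or TTCGAA and the CCAAT box as CCAAT, on both strands, so that TTCAAA and ATTGG also count. A CHR match lay in 38 of the 58 member windows, or 65.5%, against 16.4% of all 35116 windows. Within the stretch that begins 60 bases before the start, 56.9% of member windows and 5.44% of all windows held a CHR match. A CCAAT match lay in 74.1% of member windows and in 34.6% of all windows, and both elements lay together in 53.4% and 6.38%. A match is a run of letters and not a measured binding site. KIF11, MKI67 and ESPL1 are printed for 150 bases before the start because GENCODE 29 places no exon there and both elements are present. CHR and CCAAT matches are in capitals, and in MKI67 the last CHR and CCAAT matches share bases.
KIF11, chr10:92592980-92593129, plus strand: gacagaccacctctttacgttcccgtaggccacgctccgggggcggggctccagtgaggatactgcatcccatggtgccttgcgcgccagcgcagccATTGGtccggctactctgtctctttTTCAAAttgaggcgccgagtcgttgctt
MKI67, chr10:128126424-128126573, minus strand: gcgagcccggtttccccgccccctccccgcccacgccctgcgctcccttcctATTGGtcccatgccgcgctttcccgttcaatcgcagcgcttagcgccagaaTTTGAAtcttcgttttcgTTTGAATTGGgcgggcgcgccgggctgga
ESPL1, chr12:53268149-53268298, plus strand: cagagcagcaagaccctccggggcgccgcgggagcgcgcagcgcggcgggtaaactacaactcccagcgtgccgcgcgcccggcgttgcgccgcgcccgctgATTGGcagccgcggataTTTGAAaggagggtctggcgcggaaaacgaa

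For the 5 members with 1 window that fell in HCC1806 and have a CHR match lying wholly within the 60 bases before the start, 30 bases around the match nearest the start are printed, with that match in capitals. They are shown so that the letters beside the element can be compared among genes that fell.
HMMR, chr5:163460598-163460627, plus strand: gggagatttgaaTTTGAAaccggtagggag
CENPA, chr2:26786026-26786055, plus strand: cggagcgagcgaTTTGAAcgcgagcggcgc
CCNB2, chr15:59105105-59105134, plus strand: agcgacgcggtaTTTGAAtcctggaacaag
BUB1B, chr15:40161034-40161063, plus strand: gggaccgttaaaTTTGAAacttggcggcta
KIF11, chr10:92593090-92593119, plus strand: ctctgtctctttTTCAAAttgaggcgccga

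The match begins 22 bases before the RefSeq start in HMMR, 18 in CENPA, 29 in CCNB2, 23 in BUB1B and 28 in KIF11. HMMR carries a further TTTGAA directly before the capitals. In KIF11 the element lies on the opposite strand.

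Totals per library ranged from 18640633 to 44790741 counts, with the MDA-MB-468 libraries the deeper ones. Levels below are CPM, the count of a gene scaled to a common library total, after adjustment by TMM, which sets library sizes so that most genes do not shift. PRKRA, the targeted gene, measured 78.6, 82.6 and 72.1 CPM in the HCC1806 controls and 37.5, 36.1 and 37.3 CPM with sgPACT-2. PRKRA fell there, and the log2 fold change was -1.07 (SE 0.10, edgeR adjusted p = 1.7e-05). In MDA-MB-468 PRKRA measured 41.1, 45.9 and 46.9 CPM in the controls and 39.2, 35.5 and 41.6 CPM in the libraries labelled sgPACT-2, or -0.20 on the log2 scale (SE 0.10, edgeR adjusted p = 0.958). The groups overlapped, so PRKRA RNA gives no check of the label in MDA-MB-468, and the protein was not measured here. Mitochondrial genes took 11.6 to 15.0% of the counts of HCC1806 libraries and 6.31 to 8.90% of those of MDA-MB-468 libraries. Of the receptor genes, PGR averaged at most 0.16 CPM in any group, while ESR1 averaged 20.9 CPM in HCC1806 controls and 6.67 CPM in MDA-MB-468 controls and ERBB2 averaged 194 and 140 CPM. All 6 epithelial markers were detected in every group. Of 6 leukocyte markers, CD14 averaged 98.7 CPM in MDA-MB-468 controls, and CD3E and LYZ were at or near 0 throughout.

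In HCC1806, all 54 mitosis and spindle genes had lower mean levels with sgPACT-2 than with sgC1, and 23 of them fell past the threshold, an edgeR adjusted p-value under 0.05 over all 27029 genes. None rose. Over all genes tested, 2.49% were called in either direction and 1.32% were called lower. The median log2 fold change of the members was -0.46 against 0.0078 for all genes, so that the median member stood at 72.9% of its control level. The range among members was narrow, from -0.74 for DLGAP5 to -0.14 for ESPL1, with quartiles of -0.57 and -0.35 and standard errors of 0.10 to 0.18. At an unadjusted p-value under 0.05, 44 members were lower and none higher, where 7.82% of all genes were lower.

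The count of called members moved between fits, while the sign did not. All 54 values stayed below 0 in every alternative fit and with any 1 library left out. The fit shares 1 spread between both lines, and the biological coefficient of variation from a fit of 1 line was 0.204 for HCC1806 and 0.0936 for MDA-MB-468. In counts simulated with a spread of its own for each line, 27.9% of the HCC1806 calls of the shared fit were false, and 18.6% with the replicate block. Both shares are larger than the 0.05 threshold allows, and the counts of called genes from the shared fit carry that limit. In the same simulated counts the fit of HCC1806 alone stayed within the threshold and recovered fewer of the changed genes. The simulation was a single draw, with 200 genes of each line changed by 1 log2 unit up or down, more than the median member. It gave all genes of a line 1 spread and did not pair libraries. Its false shares are therefore not the error rate of the calls in the measured counts. The simulation also cannot show how the blocked fit behaves where libraries are paired. With HCC1806 fitted alone, over 23485 genes, 2 members fell, DLGAP5 and KIF20A, where 0.0383% of all genes were called lower. With the replicate number as a block, 43 members fell, where 4.61% of all genes were called lower, and with HCC1806 fitted alone with that block 25 fell, where 1.48% were called lower. With the block and a GC and length correction 43 fell, where 5.49% were called lower. DESeq2 called 31, where 2.8% of all genes were lower, and edgeR with no filter on low counts 36, where 1.74% were. At an adjusted p-value under 0.01, 4 members fell, where 0.185% of all genes did. Scaling by library size alone moved the median of all genes to 0.13 and that of the members to -0.34, and called 14 members, where 0.54% of all genes were called lower. Under that scaling 18.4% of all calls were lower, against 53.3% with TMM.

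**Figure D1:**
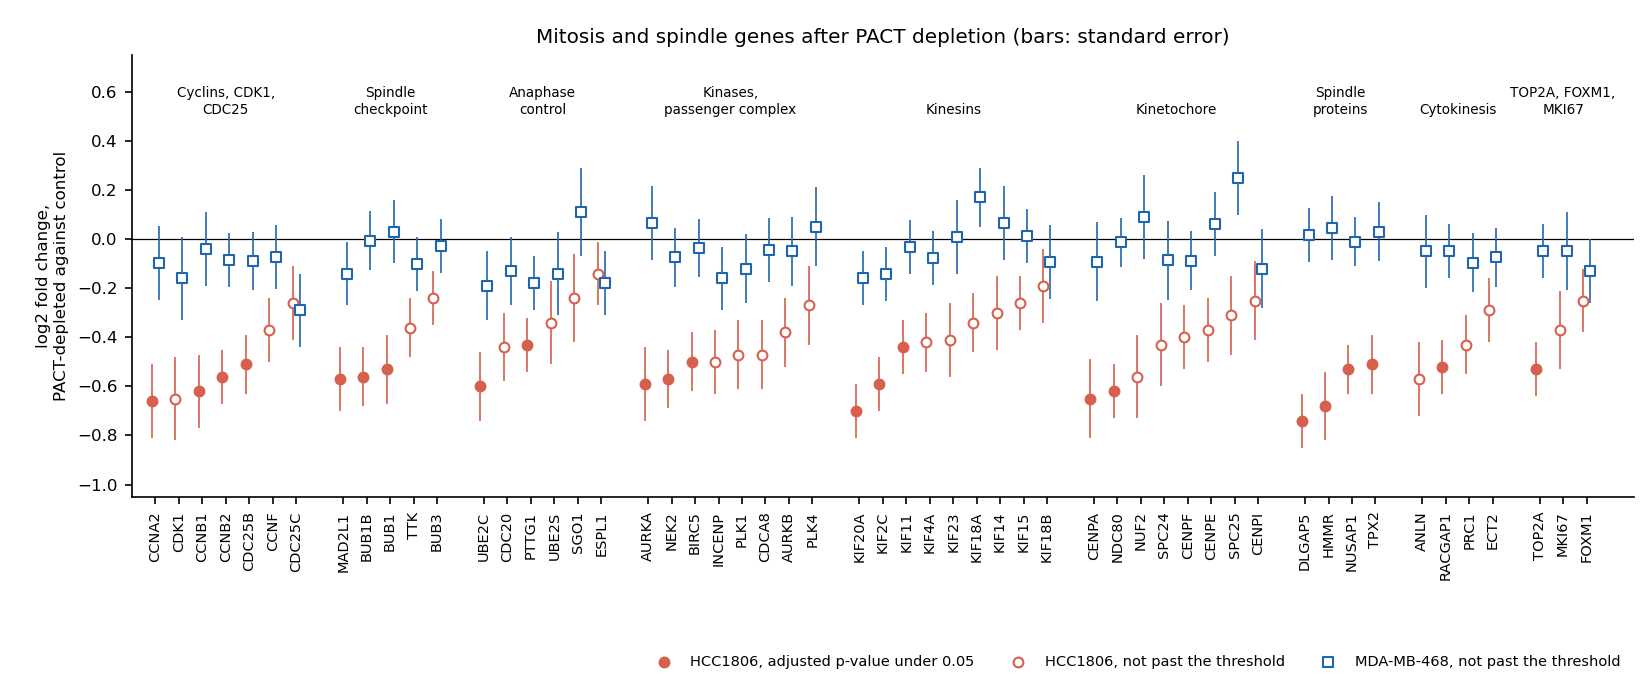
Log2 fold change of each of the 54 genes with its standard error, grouped by role, for HCC1806 (circles, filled where the edgeR adjusted p-value is under 0.05) and MDA-MB-468 (squares). All circles lie below 0, from -0.74 to -0.14, while the squares lie between -0.29 and 0.25.

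Single libraries showed the same order with some overlap. The summed level of the 54 genes was 8029, 6499 and 6963 CPM in HCC1806 control replicates 1, 2 and 3 and 6192, 5002 and 4670 CPM in the sgPACT-2 replicates. The means were 7164 ± 784 and 5288 ± 800 CPM (SD, n = 3), and the highest depleted library stayed below the lowest control. Control replicate 1 stood apart upward, with 51 of 54 members above the control mean and a median of 0.18 on the log2 scale. Sorted by gene, 36 members (66.7%) had all 3 depleted libraries below all 3 controls, where 8.17% of all genes did, and none had all above, where 8.51% of all genes did. Without control replicate 1, only DLGAP5, KIF20A, KIF2C, NDC80 and NUSAP1 passed the threshold, 5 members, where 0.418% of all genes were called lower. Without sgPACT-2 replicate 1, 39 passed, where 4.1% of all genes were called lower. Leaving out sgPACT-2 replicate 2 gave 9 called members, where 0.572% of all genes were called lower, and leaving out sgPACT-2 replicate 3 gave 11, where 0.815% were. Against the control of the same number, the median member differed by -0.52, -0.38 and -0.56 on the log2 scale, with 52, 51 and 53 members lower.

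**Figure D2:**
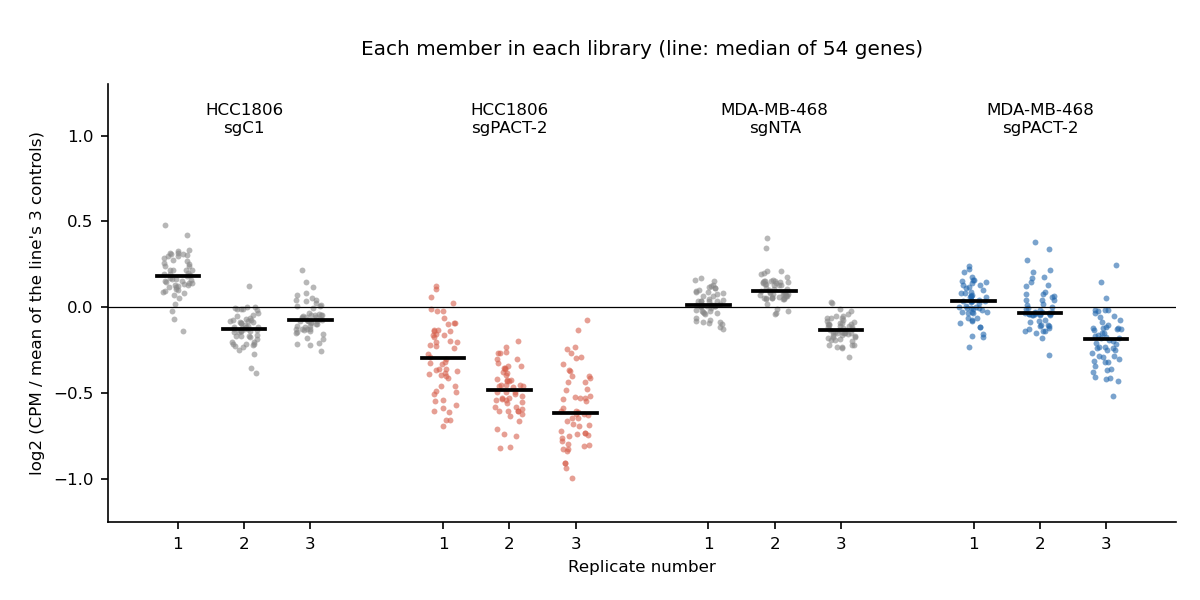
Each point is 1 gene in 1 library, as log2 of its CPM over the mean of the 3 controls of its line, and the bar is the median of the 54 genes. In HCC1806 the sgPACT-2 medians are -0.30, -0.48 and -0.61 and the control medians 0.18, -0.12 and -0.075, whereas in MDA-MB-468 controls and sgPACT-2 libraries overlap.

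Counts by role follow, and over all genes 1.32% were called lower in HCC1806, or 4.61% with the replicate block. Among the cyclins, CDK1 and the CDC25 phosphatases, which bring cells into mitosis, 4 of 7 genes fell in HCC1806. The median of the 7 log2 values was -0.56. CCNB2, a B-type cyclin that activates CDK1, measured 71.5, 63.4 and 64.9 CPM in controls and 42.3, 52.1 and 41.3 CPM with sgPACT-2. The highest depleted library was below the lowest control, and the log2 fold change was -0.56 (SE 0.11, adjusted p = 0.0143). CCNA2, the cyclin of S phase and mitotic entry, measured 114, 76.0 and 71.5 CPM in controls and 58.5, 58.8 and 48.2 CPM with sgPACT-2. Control replicate 1 was far above the other 2, and the groups did not overlap. The log2 fold change of CCNA2 was -0.66 (SE 0.15, adjusted p = 0.025). CCNB1 and CDC25B, a phosphatase that removes inhibitory phosphates from CDK1, also fell, by log2 values of -0.62 and -0.51. CDK1 itself had a value of -0.65, close to that of CCNA2, but its control libraries spread from 58.1 to 104 CPM and its adjusted p was 0.0575, against 0.000448 with the replicate block. CCNF, at -0.37, passed only with the block (adjusted p = 0.0341), and CDC25C, at -0.26, passed neither way. The block gave 6 of the 7.

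Of the spindle checkpoint genes, 3 of 5 fell, with a median of -0.53. BUB1B, which encodes the checkpoint protein BUBR1, measured 160, 120 and 128 CPM in controls and 103, 93.7 and 80.5 CPM with sgPACT-2. Every depleted library was below every control, and the log2 fold change was -0.56 (SE 0.12, adjusted p = 0.0204). MAD2L1, the checkpoint protein that holds back CDC20, went from 31.4, 26.8 and 26.6 CPM to 18.5, 18.3 and 20.3 CPM. These groups were also apart, and the log2 fold change was -0.57 (SE 0.13, adjusted p = 0.03). BUB1, a kinase that recruits the checkpoint to kinetochores, fell with a value of -0.53 and lay just inside the threshold (adjusted p = 0.0451). TTK, the kinase that starts checkpoint signalling, had a value of -0.36 and an edgeR adjusted p of 0.125. It passed with the replicate block (adjusted p = 0.0367) and by DESeq2 (adjusted p = 0.0477). BUB3, at -0.24, passed neither way, so that the block gave 4 of the 5.

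In the group that controls anaphase, 2 of 6 genes fell, with a median of -0.39. UBE2C, the ubiquitin-conjugating enzyme that works with the anaphase-promoting complex, measured 95.7, 81.6 and 83.1 CPM in controls and 61.6, 64.4 and 46.2 CPM with sgPACT-2. The groups did not overlap, and the log2 fold change was -0.60 (SE 0.14, adjusted p = 0.0298). PTTG1, or securin, the inhibitor of separase, measured 30.8, 28.1 and 25.9 CPM in controls and 21.5, 22 and 19.7 CPM with sgPACT-2. Its groups did not overlap either, and its log2 fold change of -0.43 (SE 0.11, adjusted p = 0.0488) was the value nearest the threshold among those called. CDC20, the activator of the anaphase-promoting complex, had a value of -0.44 and an adjusted p of 0.13, or 0.00468 with the replicate block. ESPL1, which encodes separase, the protease that securin inhibits, measured 103, 92.6 and 111 CPM in controls and 110, 82.7 and 86.8 CPM with sgPACT-2. Its groups overlapped, and its log2 fold change of -0.14 (SE 0.13, adjusted p = 0.713) was the smallest of the 54. UBE2S, at -0.34, went from an adjusted p of 0.39 to 0.0201 with the block, which gave 4 of the 6. SGO1, which protects centromeric cohesin, had a value of -0.24 and passed neither way.

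Among the mitotic kinases and the chromosomal passenger complex, 3 of 8 genes fell, with a median of -0.49. NEK2, a kinase that helps separate centrosomes, measured 43.8, 36.2 and 32 CPM in controls and 24.3, 25.5 and 25.7 CPM with sgPACT-2. All depleted libraries lay close together and below all controls, and the log2 fold change was -0.57 (SE 0.12, adjusted p = 0.0191). BIRC5, or survivin, a passenger complex subunit, measured 72.2, 61.9 and 61.6 CPM in controls and 50.5, 47.3 and 40.6 CPM with sgPACT-2. The groups were apart, and the log2 fold change was -0.50 (SE 0.12, adjusted p = 0.0355). AURKA, the kinase of spindle poles, measured 100, 76.1 and 69.5 CPM in controls and 61.8, 59.2 and 43.2 CPM with sgPACT-2. It fell with a value of -0.59 (SE 0.15, adjusted p = 0.0436), and its groups did not overlap. The other passenger genes INCENP, CDCA8 and AURKB had values of -0.50, -0.47 and -0.38 and adjusted p-values of 0.0531, 0.0842 and 0.192. Under the replicate block these became 0.00607, 0.00281 and 0.0146, all inside the threshold. PLK1, with roles from centrosomes to cytokinesis, measured 59.9, 57.6 and 55.3 CPM in controls and 48.9, 42.9 and 33.2 CPM with sgPACT-2. Its groups did not overlap, but its log2 fold change of -0.47 (SE 0.14, adjusted p = 0.103) did not pass without the block and did with it, at 0.00424. PLK4, the kinase of centriole duplication, at -0.27, passed neither way, and the block gave 7 of the 8.

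Kinesins move along microtubules or shorten them, and 3 of the 9 measured fell, with a median of -0.41. KIF20A, a kinesin of the central spindle, measured 168, 157 and 150 CPM in controls and 98, 106 and 88.6 CPM with sgPACT-2. The lowest control stood well above the highest depleted library, and the log2 fold change was -0.70 (SE 0.11, adjusted p = 0.0018). KIF2C, which takes microtubules apart at kinetochores, measured 120, 110 and 104 CPM in controls and 78.3, 77.6 and 65.4 CPM with sgPACT-2. Its groups were also apart, by a smaller gap, with a value of -0.59 (SE 0.11, adjusted p = 0.00681). KIF11, the motor that pushes spindle poles apart, fell with a value of -0.44 (adjusted p = 0.0356). KIF4A, KIF23, KIF18A, KIF14 and KIF15 ranged from -0.42 to -0.26 and did not pass. With the replicate block all of these but KIF15 passed, with adjusted p-values of 0.00579, 0.0107, 0.0385 and 0.0416, and 7 of the 9 fell. KIF18B, which regulates astral microtubule length, measured 121, 96.7 and 126 CPM in controls and 124, 99.3 and 78.8 CPM with sgPACT-2. These overlapped, with a value of -0.19 (SE 0.15, adjusted p = 0.669).

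At kinetochores and centromeres, 2 of 8 genes fell, with a median of -0.41. NDC80, the subunit of the NDC80 complex that grips microtubules, measured 46.0, 38.1 and 42.2 CPM in controls and 28.4, 28.6 and 25.3 CPM with sgPACT-2. The groups were apart, and the log2 fold change was -0.62 (SE 0.11, adjusted p = 0.0055). Its partners in the same complex, NUF2, SPC24 and SPC25, had values of -0.56, -0.43 and -0.31 and did not pass. NUF2 and SPC24 passed with the replicate block, at 0.00771 and 0.0188. CENPA, the histone variant that marks centromeres, measured 51.1, 38.8 and 38.0 CPM in controls and 30.1, 29.3 and 22.1 CPM with sgPACT-2. It fell with a value of -0.65 (SE 0.16, adjusted p = 0.0355), although part of its exons overlaps SLC35F6 on the same strand. CENPF, CENPE and CENPI ranged from -0.40 to -0.25 and did not pass, while with the block CENPF and CENPE did, at 0.00451 and 0.0129, for 6 of the 8.

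All 4 of the spindle proteins fell, with a median of -0.60. DLGAP5, also called HURP, which stabilises the microtubules that reach kinetochores, measured 42.7, 39.2 and 35.8 CPM in controls and 24.8, 22.2 and 23.4 CPM with sgPACT-2. Its groups were far apart relative to their spread, and the log2 fold change was -0.74 (SE 0.11, adjusted p = 0.00177). NUSAP1, which bundles spindle microtubules, measured 152, 125 and 125 CPM in controls and 91.4, 89.3 and 98.7 CPM with sgPACT-2. Again no libraries overlapped, with a value of -0.53 (SE 0.10, adjusted p = 0.0114). HMMR, which helps organise spindle poles, measured 51.1, 35.6 and 38.0 CPM in controls and 29.9, 24.4 and 23.9 CPM with sgPACT-2, with all depleted libraries below the controls and a value of -0.68 (SE 0.14, adjusted p = 0.0159). TPX2, which activates AURKA on the spindle, fell with a value of -0.51 (adjusted p = 0.0305). Whether this group differs from the other roles was not tested.

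Of the 4 cytokinesis genes, RACGAP1 fell and the median was -0.47. RACGAP1, a subunit of centralspindlin, measured 130, 116 and 106 CPM in controls and 88.8, 82.7 and 74.1 CPM with sgPACT-2. The groups did not overlap, with a value of -0.52 (SE 0.11, adjusted p = 0.0158). ANLN, a scaffold of the contractile ring, measured 311, 237 and 274 CPM in controls and 237, 163 and 154 CPM with sgPACT-2. The top depleted library met the bottom of the controls, and the log2 fold change of -0.57 (SE 0.15) lay just outside the threshold, at adjusted p = 0.0517, and inside it with the replicate block, at 0.000506. PRC1 had a value of -0.43 and an edgeR adjusted p of 0.084. It passed with the block (adjusted p = 0.0041) and by DESeq2 (adjusted p = 0.0349). ECT2, at -0.29, passed in none of these fits. TOP2A, which untangles sister DNA, measured 348, 277 and 289 CPM in controls and 221, 200 and 212 CPM with sgPACT-2 and fell with a value of -0.53 (SE 0.11, adjusted p = 0.017). MKI67, the proliferation marker that coats mitotic chromosomes, measured 1770, 1370 and 1650 CPM in controls and 1620, 1050 and 1040 CPM with sgPACT-2. Its groups overlapped, with a value of -0.37 (SE 0.16, adjusted p = 0.268). Under the replicate block the adjusted p of MKI67 was 0.00933, inside the threshold. FOXM1, the transcription factor that drives many of these genes, had a value of -0.25 (adjusted p = 0.427), with groups that overlapped from 112 to 127 CPM in controls and from 91.9 to 120 CPM with sgPACT-2.

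**Figure D3:**
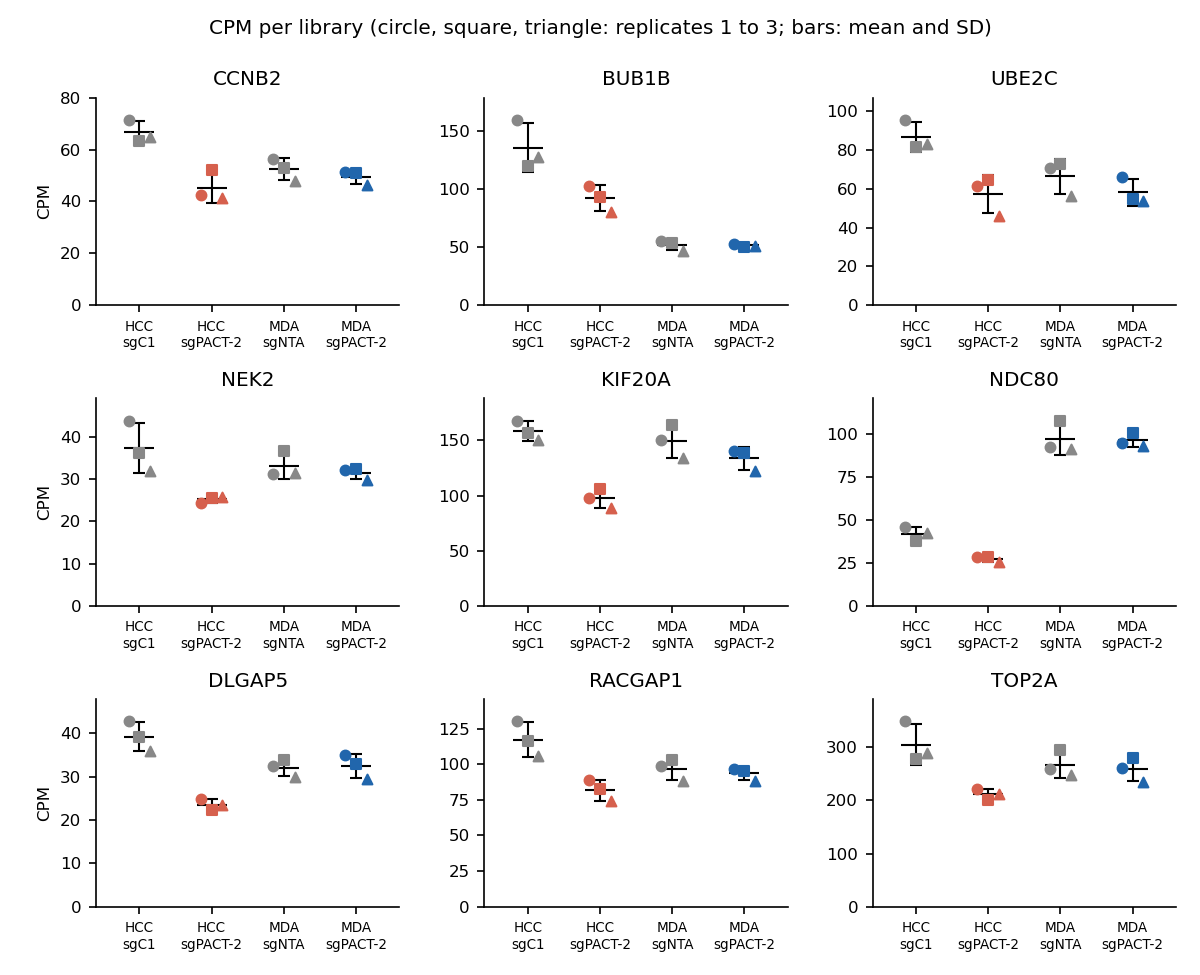
CPM in each library for 9 genes that fell in HCC1806 (HCC, grey controls and red sgPACT-2) and for the same genes in MDA-MB-468 (MDA, grey controls and blue sgPACT-2), with bars for the mean and SD of 3 libraries. In HCC1806 no panel has overlapping groups, and in MDA-MB-468 every panel does.

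The HCC1806 values were also set against the promoter letters, as a description. Over all genes 1.32% were called lower, or 4.61% with the replicate block. The 35 members with a CHR match had a median log2 fold change of -0.44, with 12 that fell, and the 11 without a match had -0.43, with 6 that fell. With the replicate block 27 of the 35 and 10 of the 11 fell. For the CCAAT box the medians were -0.44 in the 38 members with a match, of which 15 fell, and -0.56 in the 8 without, of which 3 fell, and with the block 31 of the 38 and 6 of the 8 fell. DLGAP5, with the largest fall, and HMMR, at -0.68, have matches to both elements in their windows. KIF20A, the next largest after DLGAP5, has CCAAT matches but no CHR match in its window. ESPL1, printed above with both elements, had the smallest change of all. Whether the changes go with the promoter letters was not tested.

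In MDA-MB-468 none of the 54 genes changed by edgeR, where 0.17% of all genes were called in either direction. None was under 0.05 without adjustment either, where 5.27% of all genes were, and DESeq2 also gave 0 adjusted calls, where 0.418% of all genes were called, and 0 unadjusted ones. The median log2 fold change was -0.06 against -0.0051 for all genes. Of the members, 40 were below 0 with TMM and 28 with library size alone, so no direction is given for the group. The summed level was 5300, 5602 and 4745 CPM in controls and 5242, 5196 and 4537 CPM in the libraries labelled sgPACT-2. The means were 5216 ± 435 and 4992 ± 394 CPM (SD, n = 3), and the groups overlapped. With MDA-MB-468 fitted alone, where the spread was smaller, 0 members passed after adjustment, where 1.51% of all genes did. Without adjustment 4 were under 0.05, CDC25C, PTTG1, KIF18A and SPC25, where 10.6% of all genes were. With the replicate block added to that fit, 13 members were under 0.05 without adjustment, 11 of them with negative values, where 15.6% of all genes were under it. After adjustment 0 members passed there, where 4.82% of all genes did.

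CDC25C, PTTG1, KIF18A and SPC25 were also the ones whose MDA-MB-468 groups did not overlap. CDC25C measured 10.0, 10.6 and 10.2 CPM in controls and 8.75, 9.26 and 7.17 CPM with sgPACT-2, and PTTG1 measured 52.3, 47.6 and 46.7 CPM against 45.1, 44.8 and 39.1 CPM. These 2 lay below their controls, where 6.94% of all genes did. KIF18A, a kinesin that damps chromosome movement, measured 43.7, 49.0 and 47.5 CPM in controls and 49.6, 52.6 and 55.4 CPM with sgPACT-2. SPC25 measured 12.7, 13 and 11.5 CPM in controls and 14.5, 16.1 and 13.8 CPM with sgPACT-2. These 2 lay above, where 6.2% of all genes did, so both counts are small beside the background. The log2 fold change of CDC25C, -0.29 (SE 0.15, adjusted p = 0.96), was the largest in size, and that of SPC25, 0.25 (SE 0.15, adjusted p = 1.0), the highest.

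The 3 members with the smallest adjusted p-values in HCC1806 had overlapping groups in MDA-MB-468. DLGAP5 measured 32.5, 33.8 and 29.9 CPM in MDA-MB-468 controls and 35, 33 and 29.4 CPM with sgPACT-2, a log2 fold change of 0.019 (SE 0.11). KIF20A measured 150, 164 and 134 CPM in controls and 140, 139 and 122 CPM with sgPACT-2, a value of -0.16 (SE 0.11). NDC80 measured 92.4, 108 and 91.7 CPM against 95.2, 101 and 93.3 CPM, a value of -0.012 (SE 0.10). Across the 54 members, the log2 fold changes in HCC1806 and in MDA-MB-468 gave Pearson's r of 0.0455 and Spearman's rho of 0.0372, as a description over genes that share the same libraries.

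The difference between the lines was tested as an interaction, the MDA-MB-468 log2 fold change minus that of HCC1806. No member passed the edgeR threshold, where 0.122% of all genes did in either direction, and 28 were under 0.05 without adjustment, all with the more negative value in HCC1806, where 4.34% of all genes lay in that direction. The median was 0.42. DLGAP5 had the highest value, 0.76 (SE 0.16, adjusted p = 0.076), followed by HMMR with 0.72 (SE 0.19, adjusted p = 0.223) and AURKA with 0.65 (SE 0.21, adjusted p = 0.343). In MDA-MB-468 HMMR measured 48.0, 53.5 and 52.5 CPM in controls and 56.0, 55.9 and 47.2 CPM with sgPACT-2, and AURKA measured 63.6, 69.0 and 56.8 CPM against 71.1, 64.8 and 62.2 CPM, so that both overlapped. With the replicate block 11 members passed, namely ANLN, AURKA, BUB1, BUB1B, CCNB1, DLGAP5, HMMR, KIF20A, NDC80, TOP2A and TPX2, where 0.529% of all genes were called in that direction. DESeq2 called 2, DLGAP5 and NDC80, where 0.263% of all genes were called. Of the other fits, no filter called 3, a mean of 50 counts 1, the block with the GC and length correction 13 and leaving out HCC1806 sgPACT-2 replicate 1 gave 6, where 0.259%, 0.0628%, 0.636% and 0.298% of all genes were called. At the other end were ESPL1 with -0.045 (SE 0.18), CDC25C with -0.025 (SE 0.21) and KIF18B with 0.093 (SE 0.22). In MDA-MB-468 ESPL1 measured 50.9, 56.5 and 45.8 CPM in controls and 47.0, 48.3 and 39.7 CPM with sgPACT-2, and KIF18B measured 51.5, 56.3 and 42.8 CPM against 50.6, 48.6 and 41.9 CPM. Both pairs of groups overlapped. CDC25C measured 13.2, 10.7 and 12.4 CPM in HCC1806 controls and 9.41, 9.79 and 11.0 CPM with sgPACT-2, with overlap.

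The control cells of the lines already expressed these genes at different levels. Of the 54, 26 were lower and 10 higher in MDA-MB-468 sgNTA than in HCC1806 sgC1 cells, 36 in all by edgeR. Because 74.2% of all genes differed between the lines, 40.1% lower and 34.2% higher, this share is not particular to the members. The median member differed by -0.28 and the median gene by -0.26 over the 27029 genes. These medians stayed close with DESeq2 (-0.33 and -0.3) and with library size alone (-0.53 and -0.51). They moved apart under the stricter filter, set at 50 counts on average, to -0.59 for members and -0.011 for all genes. The GC and length correction gave -0.45 and -0.068. Whether members stand lower than other genes between the lines thus depended on the processing and was not tested. AURKB, the catalytic subunit of the passenger complex, had the lowest relative level, with 163, 138 and 157 CPM in HCC1806 controls and 36.5, 32.1 and 29 CPM in MDA-MB-468 controls, a log2 difference of -2.23 (SE 0.15, adjusted p = 3.8e-10). MKI67 followed with -1.57 (SE 0.16, adjusted p = 9.75e-08), measuring 537, 592 and 482 CPM in MDA-MB-468 controls, and BUB1B with -1.39 (SE 0.12, adjusted p = 1.46e-08), measuring 54.9, 53.7 and 46.8 CPM. None of these 3 had libraries of the lines that overlapped.

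In the opposite direction, NDC80 differed by 1.21 (SE 0.11, adjusted p = 1.49e-08). CDCA8, or borealin, which is in the same passenger complex as AURKB, measured 66.1, 53.3 and 55.7 CPM in HCC1806 controls and 119, 124 and 111 CPM in MDA-MB-468 controls, a difference of 1.02 (SE 0.14, adjusted p = 3.46e-06). PLK1 measured 124, 117 and 94.9 CPM in MDA-MB-468 controls, a difference of 0.96 (SE 0.14, adjusted p = 1.04e-05). AURKB and CDCA8 thus differed between the lines in opposite directions.

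Divided by exon length, so that genes can be compared with each other, MKI67 and TPX2 were the highest members in HCC1806 controls, at 125 and 108 CPM per kb of exon. They were followed by CDC20 at 69.6, AURKB at 68.1 and UBE2C at 67.5, and these 3 lie close together. In MDA-MB-468 controls CDC20 came first, at 108 CPM per kb, ahead of CDC25B at 56.1, ANLN at 52.9 and UBE2C at 51.8, and MKI67 stood at 41.9. CDC25C was the lowest member in both lines, at 3.63 and 3.07 CPM per kb. SGO1 and MAD2L1 were also near the bottom in both, at 4.42 and 4.92 in HCC1806 and 3.45 and 4.03 in MDA-MB-468. These order levels by annotated exon length, and neighbours in the order were not tested.

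**Figure D4:**
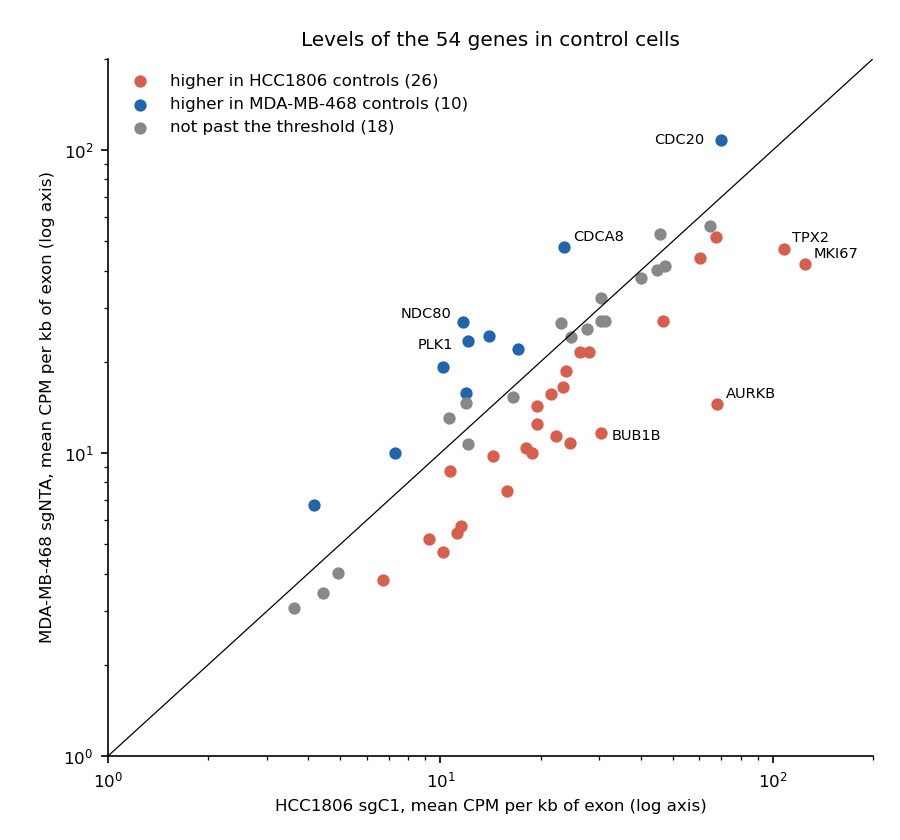
Mean CPM per kb of exon of the 54 genes in HCC1806 sgC1 cells (horizontal, log axis) and MDA-MB-468 sgNTA cells (vertical, log axis), coloured by the edgeR call, with a line at equal levels. AURKB and MKI67 lie far below the line and CDCA8, NDC80 and PLK1 above it.

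Other genes of the same processes were followed in lists of their own, where 1.32% of all genes were called lower in HCC1806. The median log2 fold change in HCC1806 was -0.20 for 30 other kinetochore genes, of which 0 fell, -0.21 for 30 other spindle and cytokinesis genes, of which 4 fell, and -0.19 for 18 condensin and cohesin genes, of which 1 fell. For the 16 subunits and partners of the anaphase-promoting complex it was -0.15, with 0 called, and for 11 regulators of mitotic entry -0.16, with 1 that fell. For 30 DNA replication genes it was -0.11, with 0 called, and for 20 genes of the MuvB, DREAM and E2F factors -0.03, with 1 that fell. With the replicate block, where 4.61% of all genes fell, the counts were 3 of the other kinetochore genes, 10 of the other spindle and cytokinesis genes, 6 of the condensin and cohesin genes, 0 of the anaphase-promoting complex, 2 of the entry regulators, 6 of the replication genes and 3 of the MuvB, DREAM and E2F genes. By DESeq2 they were 1, 7, 5, 0, 1, 1 and 1, where 2.8% of all genes were called lower. None of the genes in these lists rose in these fits, and 0 were called in MDA-MB-468. Whether their values differ from those of the 54 was not tested.

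The spindle genes outside the 54 that fell were CKAP2, HAUS4, CKAP5 and PSRC1, the last named after its value was seen. CKAP2, a microtubule-binding protein, averaged 115 ± 25.3 CPM in HCC1806 controls and 75.4 ± 3.81 CPM with sgPACT-2 (SD, n = 3), or -0.61 on the log2 scale (SE 0.13, edgeR adjusted p = 0.0177). HAUS4, a subunit of augmin, which seeds new spindle microtubules, had a value of -0.58, CKAP5, a microtubule polymerase, -0.40 and PSRC1 -0.47. NCAPD2, a condensin subunit, averaged 328 ± 7.93 CPM in controls and 231 ± 26.0 CPM with sgPACT-2, a value of -0.50 (SE 0.10, edgeR adjusted p = 0.0139). BORA, the cofactor through which AURKA activates PLK1, had a value of -0.58 (SE 0.13, edgeR adjusted p = 0.0315). RBL2, or p130, the pocket protein of DREAM, fell with a value of -0.43 (edgeR adjusted p = 0.0374). PCNA, the replication clamp, had -0.37 (edgeR adjusted p = 0.0551, or 0.00918 with the replicate block) and FBXO5, the inhibitor of the anaphase-promoting complex, -0.31 (edgeR adjusted p = 0.237).

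In the list of 8 CDK inhibitor and p53 genes, CDKN1A rose in HCC1806 and 0 fell, where 314 of all genes rose and 358 fell. With the replicate block 2 of the list rose and 1 fell, where 702 and 1245 of all genes did. By DESeq2 the list also had 2 that rose and 1 that fell, where 489 and 756 of all genes did. CDKN2C, the inhibitor p18, had a value of -0.59 and an edgeR adjusted p of 0.0727, which became 0.0229 with the replicate block and 0.0214 by DESeq2. CDKN1A, which encodes p21, the inhibitor of cyclin-dependent kinases, measured 40.3, 40.2 and 25 CPM in controls and 82.3, 66.8 and 61.5 CPM with sgPACT-2. The lowest depleted library was above the highest control, and the log2 fold change was 1.00 (SE 0.17, edgeR adjusted p = 0.00446). With HCC1806 fitted alone the adjusted p was 0.0623. In MDA-MB-468 CDKN1A measured 53.8, 44.4 and 45.5 CPM in controls and 55.3, 42.9 and 44.3 CPM with sgPACT-2, with overlap and a value of -0.012, and the interaction of -1.01 had an adjusted p of 0.139, or 0.00164 with the replicate block and 0.0255 by DESeq2.

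Markers of cell type were compared in the same HCC1806 libraries. The summed level of 6 epithelial markers was 2490 to 3050 CPM in controls and 1720 to 1940 CPM with sgPACT-2. Of the 6, 3 fell, KRT5, EPCAM and CDH1, where 1.32% of all genes were called lower. With the replicate block 5 of 6 fell, where 4.61% of all genes were called lower. The median of the 6 log2 values was -0.46, the same as that of the mitotic genes. Of 6 leukocyte markers 4 passed the filter on low counts, 2 with log2 values above 0 and 2 below, from -0.63 to 2.60. Of these 1 rose and 0 fell. The one that rose was ITGAM, a leukocyte integrin, from 0.591 ± 0.187 to 3.58 ± 0.796 CPM (SD, n = 3, edgeR adjusted p = 0.0191), while CD3E stayed at 0. Of 8 fibroblast and endothelial markers 6 passed the filter on low counts and 0 changed, and with the replicate block 1 rose, COL1A1 (0.41, edgeR adjusted p = 0.0157). The summed level of the 8 was 32.3 to 47.7 CPM in controls and 41.3 to 56.8 CPM with sgPACT-2. The part of these markers in the levels of the mitotic genes was not tested.

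**Figure D5:**
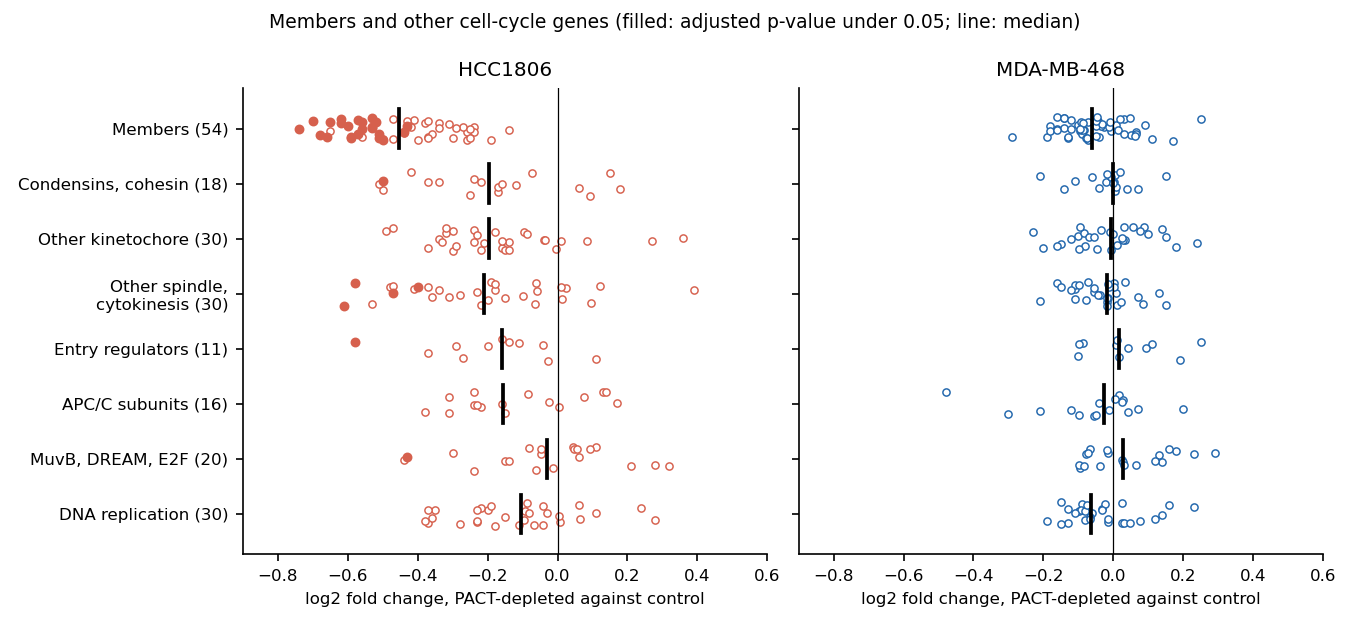
Log2 fold change of the 54 members and of each gene in the other lists (number of genes in brackets) in HCC1806 and MDA-MB-468, filled where the edgeR adjusted p-value is under 0.05, with a bar at each median. In HCC1806 the members' median is -0.46 and the medians of the other cell-cycle lists drawn lie between -0.21 and -0.03, while in MDA-MB-468 all medians lie near 0.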

How the data were processed

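The deposited table holds the authors' raw counts of reads per Ensembl gene for 12 libraries, without normalization. Per the submitters' processing notes, Trimmomatic 0.36, STAR 2.5.2b, featureCounts and Subread 1.5.2 were used with GRCh38. The annotation release and the strand setting are not given in the sources used here, so members whose exons overlap another gene are uncertain. Among them are CENPA, BUB1B, CCNA2, CDC25C, KIF20A, FOXM1, SGO1, SPC24 and PLK1. CDC25C shares 8.78% of its exon bases with FAM53C on the opposite strand, which averaged 1762 counts. KIF20A shares 3.34% with BRD8, also on the opposite strand, which averaged 1983 counts. Names and positions came from GENCODE 29, which matched 56898 of 57500 IDs, and genes without a name held 0.0284% of the counts. Promoter sequences are RefSeq's.

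Counts were filtered with filterByExpr, scaled with TMM and fitted for all 12 libraries together with the quasi-likelihood test of edgeR 4.0.16 (R 4.3.3), adjusted by Benjamini-Hochberg over 27029 genes. The alternatives were DESeq2 1.42.0, RLE factors, library size alone, no filter, a mean of at least 50 counts, each line alone, a replicate block, an adjusted p-value under 0.01 and leaving out each library. A GC and length correction, alone and with the block, and each line alone with the block were added after seeing the data. The scripts were tested on simulated data.

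Libraries of 1 line that share a replicate number in the labels were compared by their deviations from the group means. Over 15918 genes the same-number correlations were 0.479, 0.294 and 0.152 in HCC1806 and 0.116, 0.075 and 0.106 in MDA-MB-468. Over 10639 genes of higher level they were 0.579, 0.397 and 0.167 in HCC1806 and 0.358, 0.149 and 0.325 in MDA-MB-468. With each same-number value above 0.1, the numbers were taken to pair the HCC1806 libraries, although control replicate 2 correlated more with sgPACT-2 replicate 3, at 0.351 and 0.483, than with its own number. In MDA-MB-468 the value of 0.075 missed that cut-off over 15918 genes, while each value passed it over 10639. In that line each same-number value was nevertheless above all others of its libraries in both gene sets, where the highest other was 0.0148. Pairing by number was thus less specific in HCC1806, and the blocked HCC1806 counts rest on it. Blocked values are given where they change a call.

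The members and lists were chosen with earlier results of these data known. Values per library are given for the 2 members of each role with the smallest HCC1806 adjusted p-value (1 where a role has under 4 members), the 3 highest and 3 lowest in the interaction and in each direction between control cells, and for up to 3 genes of each other list with the smallest adjusted p-values. Other members are given by value or count, and those added in full were chosen after their values were seen.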

Additional observations from a re-analysis of the deposited data

How the results depend on the processing

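The HCC1806 median of -0.46 ranged from -0.55 to -0.38 when each library was left out in turn, and that of MDA-MB-468, -0.06, from -0.12 to -0.0026. The count of members that fell in HCC1806, 23, became 14 with library size alone, 36 with no filter, 2 with the line alone, 43 with the replicate block, 43 with the block and a GC and length correction, and 4 at an adjusted p-value under 0.01. Leaving out 1 library gave 5 to 39. Beside the HCC1806 libraries named above, leaving out MDA-MB-468 sgNTA replicate 1 or 2 gave 13 and 14. Among all genes, 204 and 188 were called lower in HCC1806 in those fits, against 358 with all 12 libraries. The count with an interaction, 0, became 2 with DESeq2, 3 with no filter, 1 with a mean of 50 counts, 11 with the replicate block and 13 with the block and the GC and length correction, and 0 to 6 with 1 library left out, 6 without HCC1806 sgPACT-2 replicate 1. The cause of these shifts was not tested. In MDA-MB-468 the count was 0 in all of these fits, and between control cells it was 30 to 39 with 1 library left out.

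Interaction values near 0 changed sign. That of ESPL1 was 0.00068 with the block and the correction and -0.11 to 0.10 with 1 library left out, that of CDC25C -0.098 to 0.08 and that of KIF18B -0.042 to 0.28. Among all genes, the HCC1806 count of 672 became 1245 with DESeq2, 1351 with no filter, 74 with the line alone and 1947 with the block, and the MDA-MB-468 count of 46 became 113, 143, 323 and 102. With each line alone and the block the counts were 668 and 1031, and at an adjusted p-value under 0.01 160 and 22. The median difference between control cells of members and all genes, -0.28 and -0.26, became -0.59 and -0.011 with a mean of 50 counts and -0.45 and -0.068 with the correction. The standard errors of 0.10 to 0.18 come from the shared fit, whose biological coefficient of variation was 0.171 against 0.0936 for MDA-MB-468 alone. In counts simulated with a spread of its own for each line, the shared fit recovered 86% of the changed MDA-MB-468 genes tested. The fit of that line alone recovered 98.9%. With 3 libraries a group, changes in MDA-MB-468 of the size seen could not be told from 0 after adjustment in either fit.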
